A study of Arabidopsis thaliana with 3 samples.

Results

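*AGL61*, *AGL80* and *DME* are regulators of the central cell, the large cell of the embryo sac whose nucleus forms by fusion of the polar nuclei and which gives rise to the endosperm after fertilization. They were chosen by name, 3 genes among the 13977 on any named probe of the array, and their transcripts were compared between ABAP1OE and wild-type plants at 3 stages. *AGL61* (AT2G24840) and *DME* (AT5G04560) were among the 5413 genes with an unshared probe, one that lists no other gene. *AGL80* (AT5G48670) was only on a probe shared with other genes.

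ABAP1OE plants express *ABAP1*, an armadillo and BTB domain protein gene, under the constitutive 35S promoter of CaMV, and were in the Col-0 ecotype as were the wild-type plants. How many transgenic lines were used is not given in the sources used here. RNA came from pools of flower buds at stage 13, of open flowers at stage 14 and of siliques at stages 15 to 16, and both dyes were used for either genotype on 2-colour arrays. The authors combined 3 biological replicates into 1 log2 ratio of ABAP1OE over wild type per probe and stage. There are thus no replicates to compare in the values, and no test or error between genotypes can be given for any gene. *ABAP1* itself is on no named probe, so the overexpression was not checked here.

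*AGL61*, also called *DIANA*, and *AGL80* encode type I MADS-box transcription factors, of the M-alpha and M-gamma clades. Their proteins bind each other, and both genes are known to be needed for the central cell to mature. *DME* encodes DEMETER, a DNA glycosylase that removes methylated cytosines in the central cell and so activates maternal alleles of imprinted genes such as *MEA* and *FWA*. Expression of *DME* in the central cell is known to need *AGL80*, as is that of *DD46*, a central cell gene. The central cell is a single cell in each ovule, and the RNA measured here came from whole flowers and fruits. A lower ratio can therefore come from fewer cells that express a gene or from less RNA per cell, which cannot be told apart.

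The own probe of *AGL61* gave a log2 ratio of -0.40 in the buds, 0.06 in the open flowers and -1.79 in siliques. By this probe the ratio was 1.32-fold lower in ABAP1OE buds, within 1.04-fold of wild type in the open flowers and 3.47-fold lower in siliques. A gene was called lower or higher at 2-fold, and *AGL61* was past that size on its own probe in siliques only. At least 2-fold lower were 4.40% of the genes with an unshared probe in buds, 2.81% in the open flowers and 2.36% in siliques, and at least 2-fold higher were 1.11%, 1.27% and 1.24%.

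*DME* has 2 probes of its own, and neither was 2-fold from wild type at any stage. One had log2 ratios of 0.10 in flower buds, 0.19 in the open flowers and -0.11 in siliques. The other was at -0.24, -0.40 and 0.03. The probes stood on opposite sides of 0 at each stage, and their mean was -0.07 in buds, -0.11 in the open flowers and -0.04 in siliques. In the RefSeq gene table *DME* also carries the older names AT5G04570 and AT5G04580.

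The *AGL80* probe had log2 ratios of 0.23 in flower buds, 0.31 in the open flowers and 0.32 in siliques, or 1.17-fold, 1.24-fold and 1.25-fold higher in ABAP1OE. It also lists AT5G27810 and AT5G26630, for which the gene table gives no other name. The value is that of the 3 loci together, and the part of *AGL80* in it is unknown. Among probes with several genes, 1.24% in buds, 1.03% in the open flowers and 1.32% in siliques were at least 2-fold higher, and 5.24%, 3.08% and 2.35% at least 2-fold lower. The *AGL80* probe was in neither set.

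**Figure D1:**
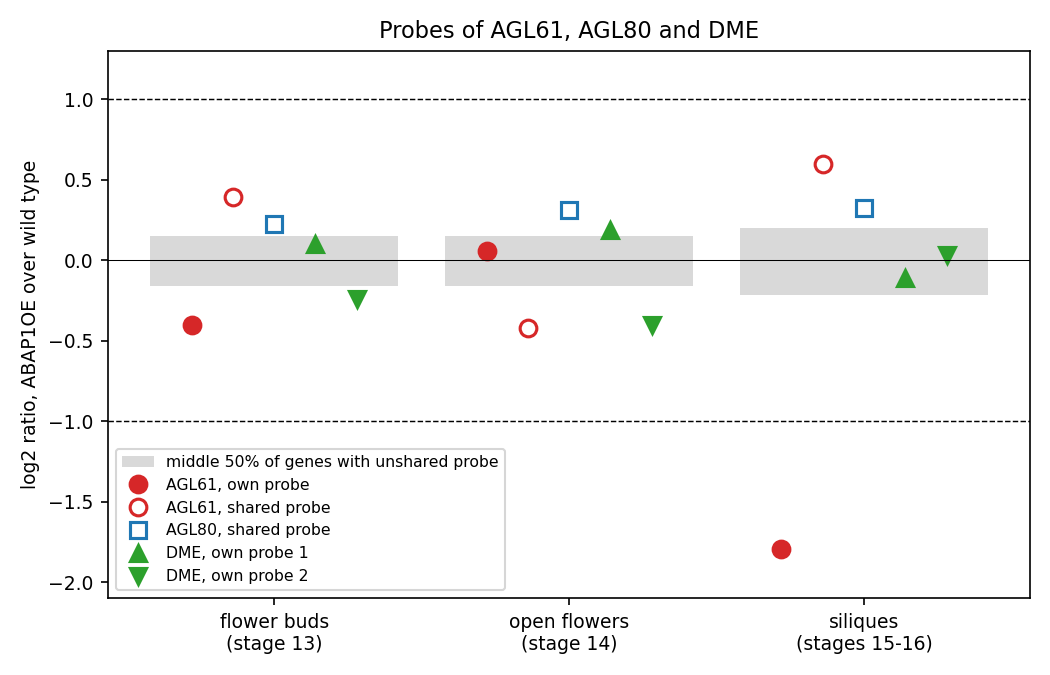
Log2 ratio of ABAP1OE over wild type for each probe of AGL61, AGL80 and DME at the 3 stages; filled symbols are probes of 1 gene, open symbols are probes shared with other genes, grey bands hold the middle 50% of genes with an unshared probe, and dashed lines mark 2-fold. The own probe of AGL61 in siliques, at -1.79, is the only point past 2-fold.

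A second probe of *AGL61*, shared with *AGL62* and AT4G36590, went the other way at each stage. It was at 0.39 in flower buds, -0.42 in the open flowers and 0.59 in siliques. *AGL62*, an M-alpha gene that holds back cellularization of the endosperm, was also on a probe shared with AT4G36590 alone, at 0.07, 0.32 and -0.08. None of these shared values was 2-fold from wild type. Averaged over its own and shared probe, *AGL61* was at -0.0054 in buds, -0.18 in the open flowers and -0.60 in siliques, so its silique value was under 2-fold in that setting.

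The own probe of *AGL61* was 0.79 below its shared probe in buds, 0.48 above it in the open flowers and 2.39 below it in siliques, on the log2 scale. Own and shared probes could be compared for 1958 genes, whose median difference in size was 0.28 in buds, 0.27 in the open flowers and 0.34 in siliques. In buds 315 of them (16.1%) differed by at least as much as *AGL61*, and in open flowers 528 (27.0%). In siliques 22 (1.12%) did, *AGL61* included. Of these 22 genes, 17 had a probe at or beyond a log2 ratio of -2.21, and *AGL61* was among the 5 that had none. Own and shared probes lay on opposite sides of 0 for 45.8% of the 1958 genes in buds, 45.6% in the open flowers and 44.2% in siliques, so that opposite signs alone do not set *AGL61* apart from other genes.

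**Figure D2:**
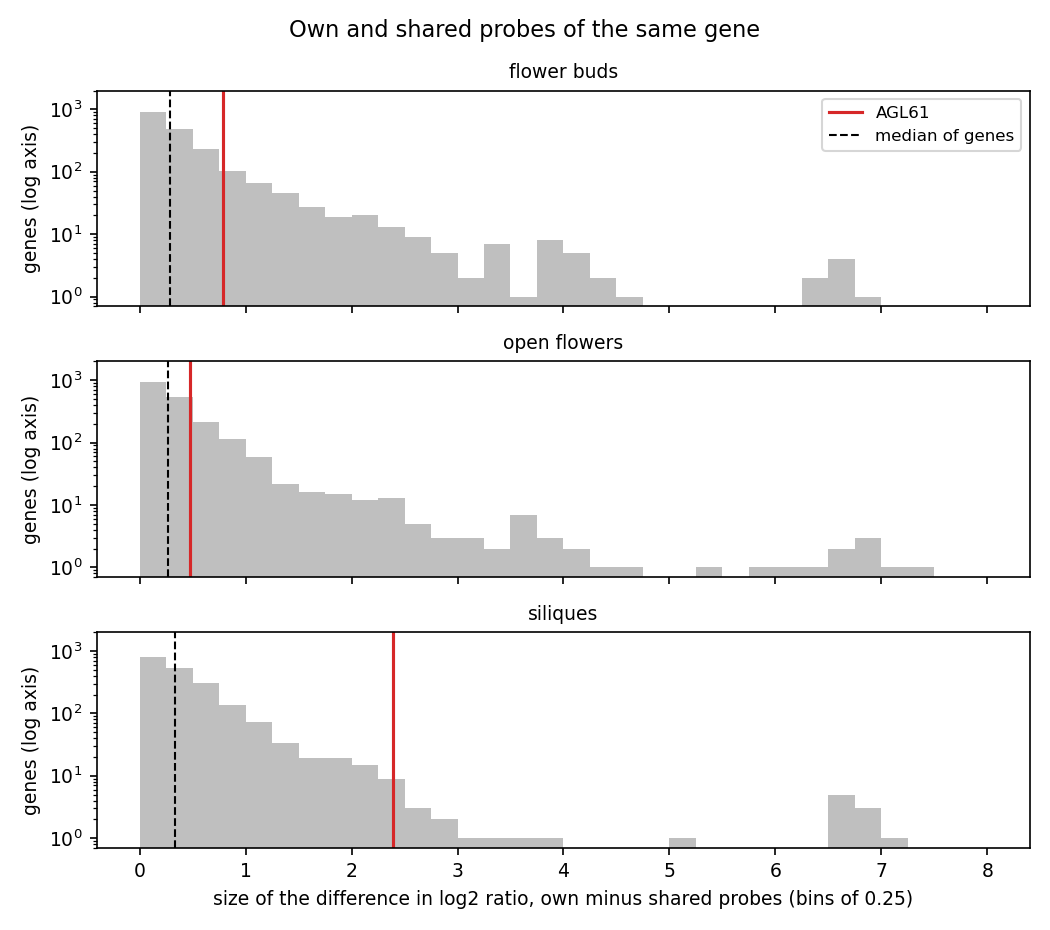
Number of genes (log axis) by the size of the difference in log2 ratio between their own and shared probes, in bins of 0.25, for 1958 genes at each stage; the red line is AGL61 and the dashed line the median. AGL61 lies at 0.79 in flower buds, 0.48 in the open flowers and 2.39 in siliques, where 22 genes lie as far out or farther.

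For *DME* the own probes differed by 0.34 in buds, 0.59 in the open flowers and 0.14 in siliques. Among the genes with several own probes of different values, 32.7% of 49 differed by at least as much in buds, 19.6% of 51 in the open flowers and 87.5% of 48 in siliques. Values at or beyond -2.21 or 2.21 were left out of this comparison, which removes the widest differences. The typical SD between own probes of a gene, with the same values left out, was 0.17 in buds, 0.15 in the open flowers and 0.26 in siliques. It describes probes and not plants. The mean of *DME* was closer to 0 than this SD at each stage, as was *AGL61* in open flowers.

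In the order of all 5413 genes with an unshared probe, 603 (11.1%) were at or below *AGL61* in flower buds and 3416 (63.1%) in open flowers. In siliques 78 (1.44%) were. *DME* stood near the middle, with 35.4% of genes at or below it in buds, 33.1% in the open flowers and 47.2% in siliques. For the *AGL80* probe the share at or below it among probes with several genes was 85.0%, 88.8% and 82.9%, so it was in the upper part of that order at each stage. At least as far from 0 as *AGL61* in either direction were 18.8% of genes in buds, 81.5% in the open flowers and 1.59% in siliques.

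The low end of these columns has a structure that bears on the silique value of *AGL61*. Ratios were limited to 100-fold, at -6.64 and 6.64, and 231 transcript probes in siliques stood at exactly -2.21, against 1 at 2.21. A value of -2.21 equals the limit divided by 3, the mean that 3 log2 ratios have when 1 is at the limit and the others are at 0. Of the 36 spots named as empty, 24 were at or below -1.79 in siliques, and their median was -2.21. Of the 78 genes at or below *AGL61*, 69 were at or beyond -2.21 and 9, *AGL61* included, were above it. With equal weights, -1.79 would result from 3 replicates near that level, and also from 1 replicate at the limit with the others at a mean of 0.63. The single replicates and their intensities were not used here, so these cannot be told apart.

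**Figure D3:**
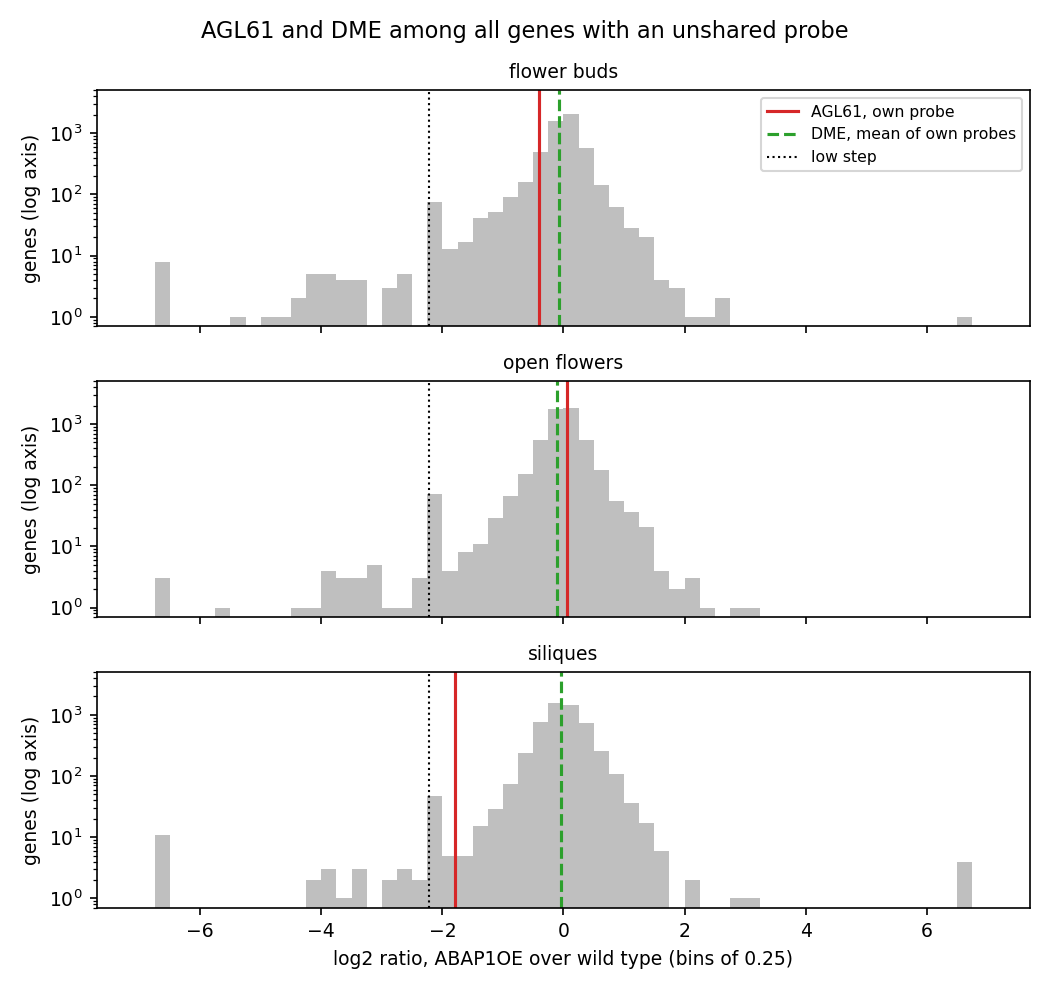
Number of genes with an unshared probe (log axis) by log2 ratio of ABAP1OE over wild type in bins of 0.25, for 5413 genes at each stage; the solid line is AGL61, the dashed line the mean of the DME probes and the dotted line the level of -2.21 at which many probes and empty spots stand. AGL61 moves from -0.40 in flower buds to -1.79 in siliques, just above the dotted line, and DME stays within 0.11 of 0.

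Across stages, the ratio of *AGL61* was 0.46 higher in open flowers than in buds and 1.85 lower in siliques than in open flowers. The difference between stages was not tested, since each has 1 combined value. For 51 of the 5413 genes the ratio in siliques was as far or farther below that in open flowers. Of the 128 genes at least 2-fold lower in siliques, 45 were under 2-fold in both buds and open flowers. *AGL61* is one of the 31 of these that were above -2.21 in siliques.

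The genes nearest to *AGL61*, by Euclidean distance over the 3 log2 ratios, were AT4G34360 (distance 0.32), AT5G65580 (0.33), AT1G33220 (0.49), AT2G04220 (0.52) and AT2G26800 (0.53). AT4G34360 was at -0.14 in buds, 0.23 in the open flowers and -1.74 in siliques. AT5G65580 was at -0.39, 0.23 and -1.51. AT1G33220 and AT2G26800 both stood at -2.21 in siliques, the level of many empty spots. With shared probes averaged in, AT4G34360 was at -0.95 in siliques and AT2G04220 at -0.36. None of these 5 genes belongs to the gene lists of the embryo sac used here.

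Of the type I MADS-box family, 12 genes had an unshared probe, *AGL61* included. Their median ratio was 0.03 in flower buds, 0.01 in the open flowers and -0.14 in siliques, beside medians of 0.01, -0.01 and -0.01 over all genes. In buds 1 of the 12 was at least 2-fold lower and 0 higher, in open flowers 1 was lower and 2 higher, and in siliques 3 were lower and 0 higher. Over all genes with an unshared probe, 4.40%, 2.81% and 2.36% were lower and 1.11%, 1.27% and 1.24% higher. The 3 in siliques include *AGL61* itself. The gene lower at every stage was *AGL85*, at -2.21, -2.21 and -4.19, in the range of the empty spots. In siliques *AGL61* was the second lowest of the 12, after *AGL85*, and *AGL76* followed at -1.06.

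Within the M-alpha clade of *AGL61*, 5 of the 24 listed genes had an unshared probe. *AGL39* was at -0.07 in buds, 0.55 in the open flowers and 0.42 in siliques. *AGL57* was at 0.36, -0.21 and -0.15, and *AGL83* at -0.04, -0.01 and -0.16. These 3 genes stayed under 2-fold at each stage, and in siliques they were 1.63 or more above *AGL61* on the log2 scale. *AGL85*, also of this clade, was below *AGL61* at each stage, at -2.21, -2.21 and -4.19, in the range of the empty spots. The M-alpha genes *AGL55* and *AGL56* were only on shared probes, at -5.65 and -0.33 in siliques. *AGL61* was thus not the only low gene of its clade in siliques.

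In the M-gamma clade of *AGL80*, 3 of the 16 listed genes had an unshared probe. *AGL95* was the highest at 0.96 in flower buds, 1.13 in the open flowers and 0.86 in siliques, past 2-fold in open flowers only. *AGL87* was at 0.20, 0.26 and 0.39 and *AGL96* at 0.16, 0.03 and -0.29. A probe that *AGL95* and *AGL96* share with *AGL41* and *AGL48* was at -0.54, 0.28 and -0.75. It thus lay on the other side of 0 from the own probe of *AGL95* in buds and siliques. With own and shared probes averaged, 0 of the 11 M-gamma genes on any named probe were 2-fold from wild type at any stage. *PHE1*, an imprinted gene of the endosperm, and its near copy *PHE2* (*AGL38* in the gene table) shared both of their probes, which were at 0.30 and 0.59 in buds, -0.12 and -0.53 in open flowers, and -0.18 and -0.69 in siliques. The 2 probes of this pair kept the same order of stages, with the highest ratio in buds.

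The M-beta genes with an unshared probe were 4 of 19. *AGL77* had the widest span, from -0.76 in buds to 1.28 in open flowers, and was at 0.52 in siliques. *AGL76* was at 0.40, -0.37 and -1.06, *AGL103* at -0.87, -0.31 and 0.15, and *AGL54* at 0.11, -0.01 and -0.14. *AGL103* also had a probe shared with *AGL52* and *AGL78*, at 0.43, 1.04 and 1.36. *AGL76* had one shared with *AGL43*, *AGL75* and AT5G40070, at -2.21 at each stage, the level of many empty spots. A further 29 type I genes were only on shared probes and had 17 distinct values. Their medians were -0.12 in buds, 0.01 in the open flowers and -0.21 in siliques, with 2, 3 and 4 genes at least 2-fold lower and 0, 2 and 2 higher. The lower genes were *AGL43* and *AGL75*, on the same probes, at each stage, and *AGL82* in open flowers. In siliques *AGL55* and *AGL56*, also on the same probes, were added. Each had a probe at or beyond -2.21 there, the level of many empty spots. The higher genes were *AGL52* and *AGL78*, on the same probe. Over all genes on any named probe, with own and shared probes averaged, 4.64% in buds, 3.33% in the open flowers and 2.43% in siliques were at least 2-fold lower, and 0.622%, 0.715% and 0.751% higher. Type I genes have many close copies, and how far these probes cross-hybridise is not known.

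**Figure D4:**
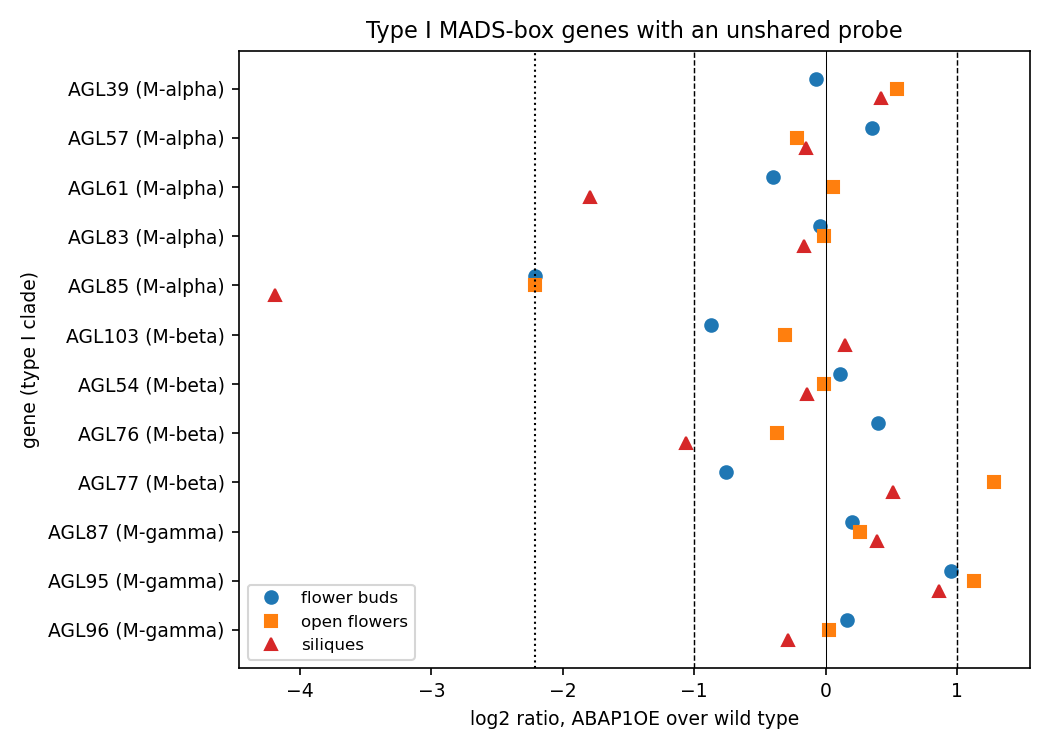
Log2 ratio of ABAP1OE over wild type (x axis) for the 12 type I MADS-box genes with an unshared probe, by clade, in flower buds (circles), open flowers (squares) and siliques (triangles); dashed lines mark 2-fold and the dotted line -2.21. In siliques AGL85 (-4.19), AGL61 (-1.79) and AGL76 (-1.06) lie past 2-fold on the low side.

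Few of the genes that act with *DME* were on a named probe. With no gene symbol on 13264 probes, genes on no named probe may still be on the array. *DME* was the only one of the 11 listed genes of DNA glycosylases and base excision repair on a named probe. Its relatives *ROS1*, *DML2* and *DML3*, which remove methylated cytosines in the plant body, were on none, and so were all 16 listed genes of DNA methylation and all 8 of Polycomb repressive complex 2, *MEA* and *FIS2* included. *MPC*, a maternally expressed imprinted gene of the endosperm and a target of *DME*, had an unshared probe at -0.03 in buds, -0.42 in the open flowers and -0.65 in siliques, under 2-fold throughout. *DD46* shared 2 probes with AT1G77810, at 0.01 and -0.04 in buds, -0.11 and -0.03 in open flowers, and 0.04 and 0.26 in siliques. These values were all close to wild type.

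Of 16 listed genes of polar nuclei fusion, only *ERDJ3B*, a co-chaperone of BiP in the endoplasmic reticulum (*ATERDJ3B* in the gene table), had an unshared probe. It was at -0.06 in flower buds, 0.21 in the open flowers and -0.21 in siliques. Of the own-probe genes of the other embryo sac cells, *EC1.1*, *EC1.5* and *UBC31* were lowest in buds, and *FER* was low at no stage. *EC1.1*, a sperm-activating protein gene of the egg cell, was at -1.61 in flower buds, -0.37 in the open flowers and -0.28 in siliques. *EC1.5* was at -0.66, 0.03 and -0.53, so its bud and silique values were close. *UBC31*, which encodes an E2 enzyme of ubiquitination and marks antipodal cells, was at -2.19, -0.43 and 0.36. *FER*, a receptor kinase gene that acts in synergids and elsewhere, was at 0.04, 0.00 and 0.26. Its probe shared with *ANX1* and *ANX2* was at -0.87, -0.45 and -0.18. In buds *EC1.1* and *UBC31* were past 2-fold on their own probes while *AGL61* was not, and in siliques *AGL61* was past 2-fold while these were not. The *UBC31* value in buds was close to -2.21, the median of the empty spots there. A probe of *EC1.1* shared with *EC1.4* was at -0.49 in buds, -0.37 in the open flowers and -0.26 in siliques, under 2-fold throughout. Beside the members, 23 genes of the central cell and early endosperm were listed, 0 with an unshared probe and 3 on shared probes. The medians of these 3 were 0.23 in buds, -0.07 in the open flowers and 0.15 in siliques, with 0 of them 2-fold from wild type. Whether the silique value of *AGL61* holds for other central cell genes was thus not tested.

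Markers of other tissues were also given by few unshared probes. Of the integument and ovule genes, *INO* had 3 own probes with identical values, which count as 1 measurement, at -0.31 in flower buds, -0.21 in the open flowers and -0.63 in siliques. Its probe shared with *YAB2* and *YAB5* was at -0.49, -0.52 and 0.57, so own and shared probes lay on opposite sides of 0 in siliques. *SPL* was at 0.04, -0.11 and -0.16.

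Of 32 listed pollen genes 3 had an unshared probe and 8 more were on shared probes. With own and shared probes averaged, all 11 were below 0 in buds and in the open flowers, and 8 were in siliques, with medians of -0.64, -0.29 and -0.18. Since some share their probes, the 11 genes had 9 distinct values at each stage. At least 2-fold lower were 2 of the 11 in buds, 2 in the open flowers and 0 in siliques, beside 4.64%, 3.33% and 2.43% of all genes on any named probe. The 2 genes were *PPME1* and *VGD1*, which were on shared probes only. *PPME1*, a pectin methylesterase gene of pollen, was on shared probes at -1.68 and -1.59 in buds, -1.06 and -0.96 in the open flowers, and -0.37 and -0.38 in siliques. *VGD1*, another pectin methylesterase gene of the pollen tube, shared its probes with *VGDH1*, at -1.34 and -2.21, -0.74 and -2.21, and -0.77 and -0.30. The value of -2.21 in buds and open flowers is also the median of the empty spots there. On unshared probes, *PLIM2b* was at -0.98, -0.29 and -0.15, *SETH1* at -0.31, -0.33 and -0.73, and *SETH2* at 0.00, -0.08 and -0.24. With shared probes averaged in, the median of the pollen list was thus lowest in buds and nearest to 0 in siliques. On unshared probes alone the medians differed less, at -0.31, -0.29 and -0.24, beside 0.01, -0.01 and -0.01 over all genes. Of these genes, *PLIM2b* was lowest in buds, and *SETH1* and *SETH2* were lowest in siliques, as was *AGL61*. The part of other tissues in the ratios of *AGL61* was not tested.

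**Figure D5:**
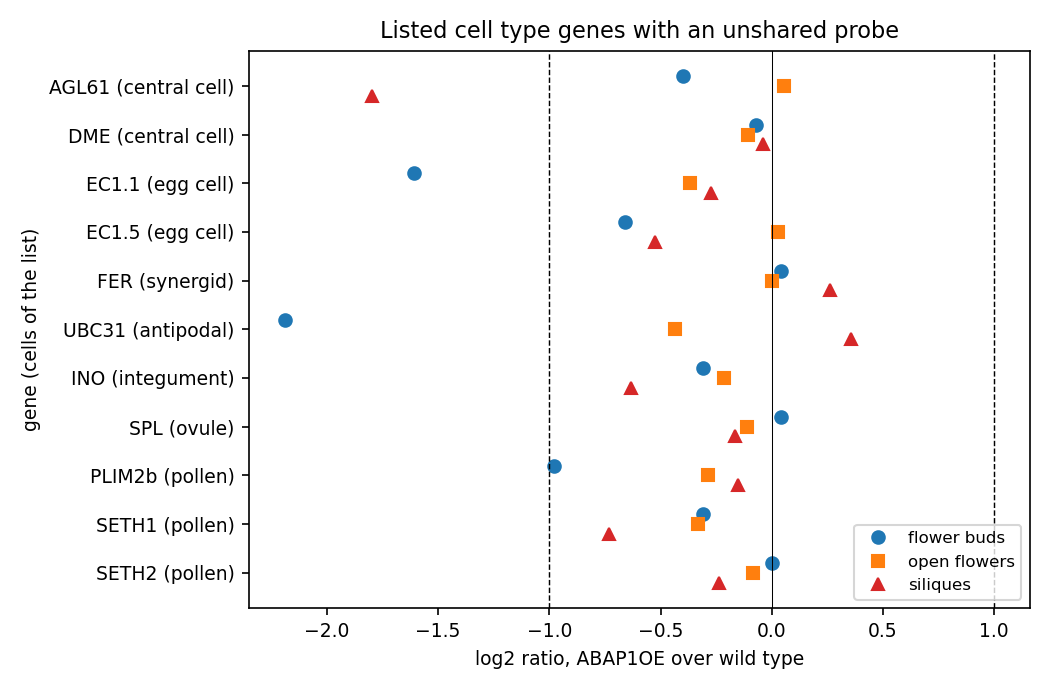
Log2 ratio of ABAP1OE over wild type (x axis) for the members AGL61 and DME and for listed genes of the egg cell, synergids, antipodal cells, ovule and pollen that have an unshared probe, in flower buds (circles), open flowers (squares) and siliques (triangles); dashed lines mark 2-fold. EC1.1 (-1.61) and UBC31 (-2.19) are past 2-fold in flower buds and AGL61 (-1.79) in siliques.

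*AGL61* and *AGL80* were also assayed by qRT-PCR in the study, with *UBQ14* as the reference gene. Its text and its figure legend name different tissues for that assay, ovaries and flower buds, so whether it sampled the same tissue as the bud arrays is not settled. Those values are not part of the files and are not given here. *UBQ14* is on no named probe of the array.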

How the data were processed

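The deposited values are log2 ratios of ABAP1OE over wild type per probe, which the authors derived from 2-colour arrays with long oligonucleotides (Operon oligo set version 1.0), with 3 biological replicates per stage combined into 1 column. How background, normalization and averaging were handled is not given in the sources used here. The folds behind 99.8% of the ratios had 2 decimals (within 0.002). Scale and direction of the flower bud column were settled against the signed fold changes of the study's table of changed genes (46 genes, 46 with the same sign, Pearson's r 1.00 across genes), and the other columns were taken to run the same way from their labels. The median over transcript probes was 0 in each column. Intensities were not used here, so signal over background is unknown, and the number of arrays limits precision.

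Of 26545 probes, 71 control spots were left out. In the platform annotation 5784 probes had 1 gene symbol, 7497 several and 13264 none. Gene identifiers were looked up in the RefSeq table of TAIR10.1 for current names and matched for 5756 of the 5784. Own probes of a gene were averaged, and shared probes were kept apart. No genome build is given for the probes, so no coordinates are given, and no sequences were used here.

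No test of genotype was possible with 1 value per stage. A gene was called at 2-fold, and 16 gene lists were described by counts and medians. Of 244 list names, 31 did not match exactly 1 gene of the table. The members and lists were chosen with earlier results of these data known. Named were the members, the genes on their probes, the M-alpha, M-gamma and glycosylase genes with an own probe, up to 4 genes with an own probe of each other list farthest from 0 in buds, and the 5 genes nearest to *AGL61*. Some genes on shared probes only were named outside this rule. Among them were those of the type I and pollen lists that were past 2-fold. Alternatives were centring, scaling, the probe farthest from 0, shared probes averaged in, sizes of 1.5-fold and 3-fold, leaving out values at or beyond -2.21, means, and all transcript probes. The counting was tested on simulated data. Tools were pandas 2.3.3 and numpy 2.4.6 for the tables, scipy 1.17.1 for intervals and matplotlib 3.10.9 for plots, under Python 3.11.15.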

Additional observations from a re-analysis of the deposited data

How the results depend on the processing

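No paired analysis was possible because a probe has a single merged ratio at any stage and nothing was tested. Of 108 recomputed values 39 were equal to the reported ones, often since a setting left them untouched, 32 stayed within the spread between probes (for counts within 1.5 times, for shares within the exact binomial interval) and 37 moved. The cause of the changes was not tested beyond what each setting adds or removes. Signal over background is unknown.

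*AGL61* averaged over own and shared probes was at -0.0054 in buds, -0.18 in the open flowers and -0.60 in siliques, and with the columns scaled to the spread of buds it was at -1.37 in siliques. The *DME* probe farthest from 0 was at -0.24 in buds and -0.40 in open flowers. Among all transcript probes 12.0% were at or below *AGL61* in buds and 45.6% at or below *DME* in siliques. Of the 5413 genes with an unshared probe, 238, 152 and 128 were lower in buds, open flowers and siliques, and at 1.5-fold 417, 302 and 335. Without values at or beyond -2.21 the counts were 127, 54 and 55. With shared probes kept they were 648 of 13976, 465 of 13977 and 340 of 13977. As shares these were 4.64%, 3.33% and 2.43%, beside 4.40%, 2.81% and 2.36% on unshared probes. The 3-fold size left 137 lower genes in buds and 82 in siliques. Genes higher were 60, 69 and 67, at 1.5-fold 213, 226 and 309, and at 3-fold 10, 12 and 11. With shared probes kept 105 of 13977 (0.751%) were higher in siliques, beside 1.24% on unshared probes. The mean of the M-alpha genes, *AGL85* included, was -0.47, -0.37 and -1.175, beside medians of -0.07, -0.01 and -0.16. That of the M-gamma genes was 0.44 in buds and 0.47 in open flowers, beside medians of 0.20 and 0.26. That of the M-beta genes was 0.15 in open flowers, beside a median of -0.16. With shared probes kept, the median for M-gamma genes in siliques was -0.15, against 0.39 on unshared probes. For M-beta genes in open flowers it was -0.31, against -0.16. For type II MADS-box genes it was -0.53 in buds, against 0.12, and -0.0268 at the open flower stage, against -0.22. For pollen genes in buds it was -0.64, against -0.31.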

Other observations

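Genes next to *AGL61* and *DME* on the chromosome, in the order of the TAIR10.1 RefSeq table, were looked up after the values of the members were seen. AT2G24830, the protein-coding gene before *AGL61*, had log2 ratios of -0.31 in flower buds, -0.01 in the open flowers and 0.08 in siliques. AT2G24860, the second gene after it, was at -0.07, 0.15 and -0.03, and AT2G24810, the third before it, at 0.06, 0.00 and -0.06. None of the 3 was 2-fold from wild type at any stage. AT5G04600, the second gene after *DME*, was at -0.14, -0.40 and 0.07.

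The type II MADS-box genes with an unshared probe were 4 of 46. *GOA*, listed as *AGL63* and a regulator of fruit growth, was at 0.65 in flower buds, -0.45 in the open flowers and 0.79 in siliques. *AGL33* was at 0.07, -0.28 and 0.77, *AGL16* at 0.16, -0.14 and 0.24, and *AGL67* at -0.33, -0.16 and -0.21. All 4 were below 0 in open flowers, and none was 2-fold from wild type at any stage.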
